A study of Drosophila melanogaster with 87 samples.

Results

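The sex determination genes Sxl, tra, tra2, dsx and fru were followed through every RNA library of a study of the m6A methyltransferase Mettl3 and the heat shock (HS) response of the Drosophila melanogaster head and brain. They are 5 of the 17562 genes in the table of read counts and were taken by name. All 87 libraries came from male flies in which the ubiquitous driver DaGal4 expressed an RNAi transgene, against mCherry (control RNAi), Mettl3 (Mettl3 RNAi) or Ythdc1, the nuclear m6A reader (Ythdc RNAi). Per the labels the males were collected 1 to 2 days after eclosion from crosses kept at 25 °C, while the methods give an age of 6 days for HS. They were either basal or given HS for 30 min at 38.5 °C. Some were then allowed to recover for 6 h or 24 h. Control, Mettl3 RNAi and Ythdc RNAi flies all carried DaGal4, so the RNAi was not restricted to neurons.

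Brain libraries were made from dissected, pooled brains of control and Mettl3 RNAi flies, with 6 libraries in each basal and HS group and 3 in each recovery group except control at 6 h, which had 2. A separate set of brains, called the Ythdc experiment here, had 3 libraries each of control and Ythdc RNAi, basal and HS. For m6A immunoprecipitation (m6A-IP), polyA+ RNA of pools of 200 heads was fragmented, a part was kept as input and the rest was pulled down with an antibody against m6A from Synaptic Systems (SYS, 2 pools per group) or New England Biolabs (NEB, 3 pools per group). Each pool therefore gave an input and an m6A-IP library, from control or Mettl3 RNAi heads, basal or HS.

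The genes lie at chrX:7074550-7098053 (Sxl, FBgn0264270), chr3L:16590059-16591050 (tra, FBgn0003741), chr2R:14602004-14604337 (tra2, FBgn0003742), chr3R:7924323-7967408 (dsx, FBgn0000504) and chr3R:18414273-18545586 (fru, FBgn0004652), all on the minus strand of the dm6 genome. Their exons together span from 862 bases in tra to 18433 bases in fru. Of the exon bases of tra, 74 (8.58%) are shared with l(3)73Ah on the opposite strand, and dsx shares 169 bases (1.84%) with lds. Strand use in the counting was not given in the sources used here, so reads from these stretches cannot be told apart between the neighbours.

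In Drosophila, sex is set by a cascade of alternative splicing. In females the RNA-binding protein Sxl directs the splicing of its own transcript and of tra, and the Tra protein then acts with Tra2, which both sexes make, to direct the splicing of dsx and fru. In males Sxl and tra transcripts are present but are spliced into forms without a full protein, and dsx and fru are spliced by default into the male forms. Dsx and Fru are transcription factors, Dsx of sexual form and Fru of the neural circuit of courtship. The m6A writer complex and Ythdc1 are known to help splice Sxl in the female manner. The counts analysed here are sums over a whole gene, so they give the amount of RNA of each gene and not which sex-specific form was made.

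The sequences through which the cascade is known to work are shown to tie the genes to each other, and all were read from the dm6 genome 5′ to 3′ on the strand of the gene. The 13-base repeats that Tra and Tra2 bind lie in the dsx exon used in females, which the annotation gives as 3′ UTR, and 6 matches were found there between bases 7935076 and 7935359 of 3R. In the 5′ UTR of fru, 2 matches lay between bases 18513640 and 18513687 of 3R. Capitals mark the 13-base Tra/Tra2 repeat, and lower case its flanks.
dsx repeat, chr3R:7935347-7935359: gactaTCTTCAATCAACAagcca
dsx repeat, chr3R:7935290-7935302: agcttTCTTCAATCAACAttacc
dsx repeat, chr3R:7935233-7935245: ctcaaTCTACAATCAACAttctc
dsx repeat, chr3R:7935212-7935224: tcttcTCTTCAATCAACAatccg
dsx repeat, chr3R:7935181-7935193: tctaaTCAACAATCAACAtagcc
dsx repeat, chr3R:7935076-7935088: ccaaaTCAACGATCAACAtttca
fru repeat, chr3R:18513675-18513687: agataTCATCAATCAACAttccc
fru repeat, chr3R:18513640-18513652: gctgcTCTTCAATCAACActcaa
The Tra/Tra2 repeat was searched on the strand of each gene over its whole length. Its letters hold neither of the other sequences searched below. Of 13945 genes, 33 (0.237%) held at least 1 match and dsx was the only gene with 6 or more, while Sxl held a single match in an intron at chrX:7089192-7089204. The match is a description of the letters and not a measurement of binding.

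Upstream in the cascade, Sxl acts on tra through a run of uridines at the 3′ splice site of the tra intron. A search for TG followed by a run of T (TGTTTTTTTT) on the strand of the gene found this run in tra once, in its intron at chr3L:16590935-16590944, with the run in capitals.
tra intron run: tttgtTGTTTTTTTTctagt
The same 10 letters stood in 1863 of the 13945 genes (13.4%), among them Sxl, dsx and fru. AAACA, a sequence in which m6A is common in fly mRNA, occurred on the sense strand of the joined exons 58 times in Sxl (6.31 per kb, higher than in 98.7% of the genes searched), 68 times in fru (3.69 per kb) and 23 times in dsx (2.51 per kb). It occurred 4 times in tra2 (2.17 per kb) and once in tra (1.16 per kb), and the median over genes was 1.62 per kb.

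Total counts per library were 19356178 to 47569033 in the brains of the Mettl3 experiment and 33931604 to 65901563 in the Ythdc experiment. They were 12164686 to 17710227 in the head inputs of the SYS pools, 12366260 to 15619046 in those of the NEB pools, 12035644 to 19583593 in the SYS m6A-IP libraries and 1318964 to 10525659 in the NEB m6A-IP libraries. Levels below are read counts per 1000000 counts of a library (CPM), after TMM scaling within each experiment. The RNAi was visible in its targets. In brains, Mettl3 was at 2.20 to 2.98 CPM in basal controls and 0.608 to 1.11 CPM with Mettl3 RNAi, and Ythdc1 was at 109 to 178 CPM in basal controls of the Ythdc experiment and 32.8 to 33.3 CPM with Ythdc RNAi. Ythdc1 was also lower in Mettl3 RNAi brains, with a log2 fold change of -0.68 basal (adjusted p = 0.00249). Libraries 1 to 3 of the basal and HS brain groups of the Mettl3 experiment had 21725394 to 27521233 counts, and libraries 4 to 6 had 37837504 to 47569033. The recovery libraries had 19356178 to 37990405 counts. The effects of HS in brains of the Mettl3 experiment and the results on Sxl with Mettl3 RNAi are therefore also given for each set. In the Ythdc experiment, control basal replicate 8 stood apart from the other control basal libraries, with Ythdc1 at 109 CPM against 164 and 178 CPM.

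The labelled sex and tissue were checked against defining markers. The male dosage compensation RNAs roX1 and roX2 were present in every input and brain library, with roX1 at 574 CPM or more. Yp1 and Yp2, yolk protein genes made in females, were at 3.61 CPM or less in all inputs and brains except 4 libraries. In these Yp1 reached 83.8 CPM in Mettl3 RNAi basal brain replicate 4, 242 CPM in the Mettl3 RNAi basal NEB input replicate 1, and 185 and 32.7 CPM in the Mettl3 RNAi basal SYS inputs, and its source was not tested. All 4 were Mettl3 RNAi basal libraries. Yp3, another yolk protein gene, was above 3.61 CPM in every brain and input library. Its range was 10.9 to 67.9 CPM in brains of the Mettl3 experiment and 15.7 to 52.6 CPM in the Ythdc experiment. In head inputs the range was 40 to 103 CPM with SYS and 16.1 to 202 CPM with NEB. Neuron markers (elav, nSyb, brp, Syt1, para) and glia markers (repo, Eaat1, moody, alrm) were present in all brain libraries. Retina was present too, since the rhodopsin gene ninaE was at 7890 CPM or more in each brain library and at 4280 to 7470 CPM in head inputs. In bulk RNA, fewer cells of a type and less RNA per cell cannot be told apart.

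All 5 genes were detected in every library, and in brains Sxl had the highest level per length. Per kb of exon, the mean level in control basal brains was 37.1 CPM per kb for Sxl, above 87.4% of the 11418 genes expressed there. The next levels were 11.2 CPM per kb for tra, 8.68 for tra2 and 7.83 for fru, while dsx was lowest at 2.27. Across the 35 brain libraries the per-kb values ran from 24.62 to 51.14 for Sxl, 9.45 to 15.48 for tra, 5.90 to 9.45 for tra2, 5.48 to 10.68 for fru and 1.25 to 2.86 for dsx. The ranges of Sxl and dsx overlapped that of no other member, whereas the range of fru overlapped those of tra2 and tra, and tra2 and tra met at 9.45 CPM per kb.

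In head inputs the members stood in another order, and dsx was nearer to the rest. Sxl was at 31.4 CPM per kb in control basal SYS inputs and 17.4 in NEB inputs, tra at 20.2 and 23.0, and tra2 at 5.98 and 7.47. The per-kb level of dsx was 5.58 CPM in control basal SYS inputs and 6.21 in NEB inputs, and fru was at 7.07 and 4.97. Whole heads also hold muscle, and the muscle myosin gene Mhc had a median of 2270 CPM in SYS and 1030 CPM in NEB inputs against 64.5 CPM in the brains of the Mettl3 experiment. Heads and brains were made with different library kits and scaled separately, so these levels are set side by side and were not tested. The brains of the Ythdc experiment had a fru level of 2.98 CPM per kb in control basal libraries, below the 7.83 of the Mettl3 experiment, and the brain experiments were also scaled separately.

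m6A-IP recovered RNA of tra, dsx and fru above input and RNA of tra2 below input in control heads. With the SYS antibody in basal control heads the fold of IP over input was 2.74 for tra, 1.98 for dsx and 1.68 for fru, and 0.522 for tra2. Sxl, which has the most AAACA per kb of the members, had a fold of 0.935, which did not pass. The number of members past an adjusted p of 0.05 was 4 of 5, in the quasi-likelihood test of edgeR, adjusted over all genes by the method of Benjamini and Hochberg, against 73.8% of all 10664 genes tested, and most genes thus differed between IP and input. The tra fold was higher than that of most genes, at the 96.8 percentile of log2 fold changes. These folds are ratios of counts summed over a whole gene. The paper instead called m6A from peaks and placed most Mettl3-dependent m6A in the 5′ UTR. In Sxl the annotated 5′ UTR covers 1584 of 9192 exon bases. A fold near or below 1, as for Sxl and tra2, therefore does not show that m6A is absent.

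tra stood at 14.3 and 20.6 CPM in the 2 control basal SYS inputs and at 43.2 and 52.2 CPM in the matched IPs. The log2 fold change was 1.46 (SE 0.08, adjusted p = 7.43e-14), and with the NEB antibody it was 1.54 (SE 0.09, adjusted p = 3.89e-11), with values of 1.51 to 1.56 in the 3 pools. All pools of both antibodies were above input for tra, the member with the fewest AAACA sequences.
dsx was above input with both antibodies, and every NEB pool lay above every SYS pool, a difference between separately scaled experiments that was not tested. dsx went from 43.8 and 58.4 CPM in SYS inputs to 95.4 and 106.5 CPM in the IPs (log2 fold change 0.99, SE 0.075, adjusted p = 3.03e-11). In the NEB pools it went from 51.8, 51.9 and 67.0 CPM to 290, 302 and 456 CPM (log2 fold change 2.60, SE 0.20, adjusted p = 1.39e-09).
fru went the same way, from 127.7 and 133 CPM to 209.5 and 229 CPM with SYS (log2 fold change 0.75, SE 0.06, adjusted p = 3.36e-11) and by 1.91 on the log2 scale with NEB (SE 0.08, adjusted p = 6.33e-13). Members past the threshold with NEB numbered 5 of 5, against 84.4% of all genes.

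tra2 was below input with both antibodies. Its level fell from 10.5 and 11.5 CPM in the control basal SYS inputs to 5.79 and 5.75 CPM in the IPs, a log2 fold change of -0.94 (SE 0.12, adjusted p = 2.06e-07), and with NEB the log2 fold change was -1.88 (SE 0.22, adjusted p = 2.90e-07). The NEB IP libraries held only 1 to 43 reads of tra2, against 37 to 122 in the SYS IPs, so the NEB value rests on few reads.
Sxl passed the test with the NEB antibody alone, and the difference between the antibodies was not tested. Its log2 fold change in basal control heads was -0.10 (SE 0.06, adjusted p = 0.158) with SYS and -0.83 (SE 0.18, adjusted p = 0.000347) with NEB, where the pools were at -0.28, -0.90 and -1.37.

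**Figure D1:**
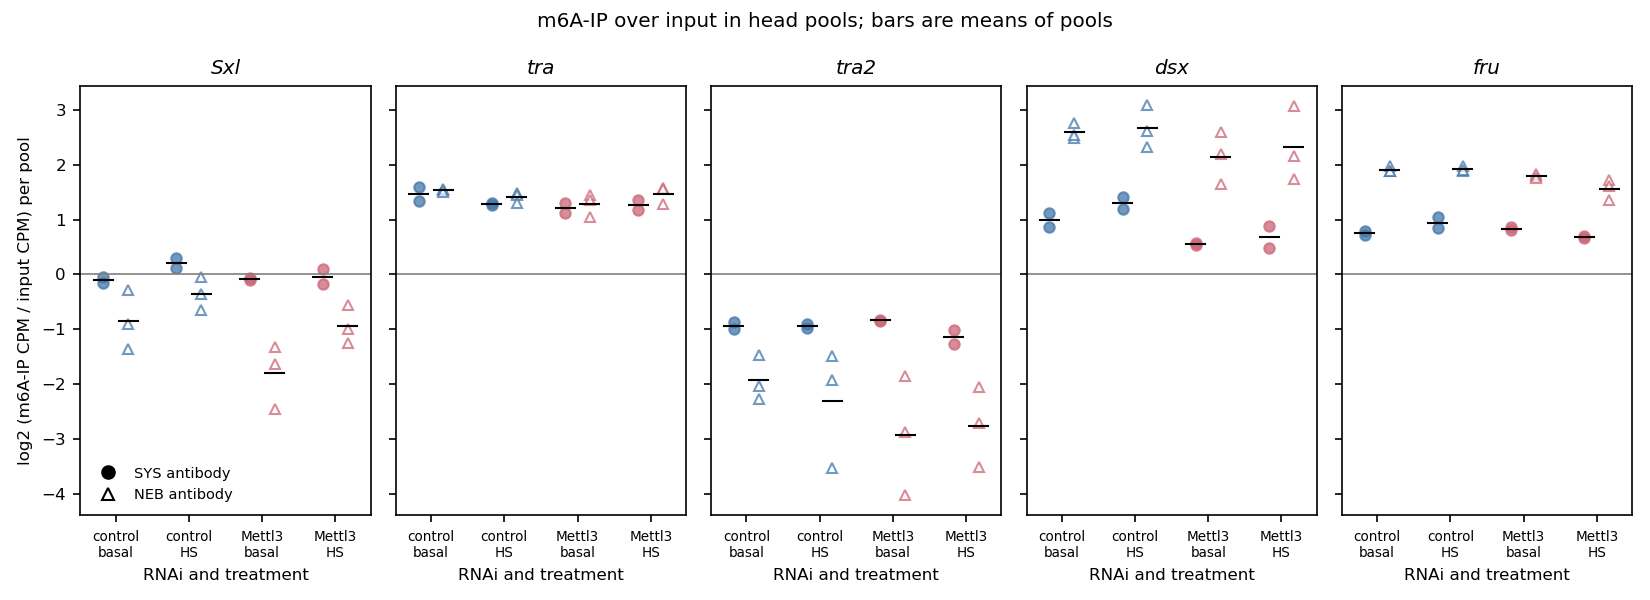
Recovery of the 5 genes by m6A-IP in head pools, as log2 of IP CPM over input CPM (vertical axis) for control and Mettl3 RNAi, basal and HS. Circles are SYS pools and triangles NEB pools, and bars are means. tra, dsx and fru lay above 0 in every pool and tra2 below 0 in every pool, while Sxl lay on both sides with SYS.

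tra, dsx and fru were also above input, and tra2 below it, after HS and with Mettl3 RNAi. After HS in control heads, 5 of 5 members passed with SYS (71.5% of all genes) and 4 of 5 with NEB (80.6% of all genes). With SYS the log2 fold changes were 1.29 for tra, 1.29 for dsx, 0.94 for fru and -0.93 for tra2. For Sxl after HS, SYS gave 0.20 (adjusted p = 0.006) but the sign turned with library size as the only scaling (-0.135) and with NEB (-0.34, adjusted p = 0.085), and without control HS SYS replicate 1 it was 0.10 (adjusted p = 0.388). In Mettl3 RNAi heads, 4 of 5 members passed with SYS in basal (68.5% of all genes) and HS flies (65.2% of all genes), and 5 of 5 with NEB in basal (77.9%) and HS flies (76.8%). The members that passed with SYS in Mettl3 RNAi heads were tra at 1.21 basal and 1.27 after HS, dsx at 0.55 and 0.69, fru at 0.84 and 0.68, and tra2 at -0.84 and -1.12 on the log2 scale.

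IP over input of dsx was lower with Mettl3 RNAi than in control with the SYS antibody, and in HS heads that of fru was lower with Mettl3 RNAi with both antibodies. No difference passed for Sxl, tra or tra2. In basal heads 1 of 5 members passed the test of the difference in IP over input between Mettl3 RNAi and control, against 10.3% of all genes, and after HS 2 of 5, against 14.5%. dsx IP over input, in log2, was 1.12 and 0.87 in the 2 control basal pools and 0.53 and 0.58 in the Mettl3 RNAi basal pools, and the groups did not overlap. The titles of these Mettl3 RNAi basal IP libraries name SYS, but their antibody label reads none, and they were used as SYS IPs. The difference was -0.43 (SE 0.11, adjusted p = 0.00965) and, after HS, -0.60 (SE 0.12, adjusted p = 0.0011), from 1.41 and 1.19 in control to 0.89 and 0.48 in Mettl3 RNAi pools.
With the NEB antibody the dsx differences were of the same sign but did not pass, at -0.465 basal (SE 0.28, adjusted p = 0.371) and -0.36 after HS (SE 0.28, adjusted p = 0.478), and the pools overlapped. The basal SYS call was lost without control basal SYS replicate 1 (-0.31, adjusted p = 0.244) and the HS call without Mettl3 HS SYS replicate 2 (-0.38, adjusted p = 0.0509). In fits without the pool as a block, neither passed (-0.43 and -0.58, adjusted p = 1 and 0.656), and no gene passed in all.

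For fru, the difference after HS was -0.26 with SYS (SE 0.09, adjusted p = 0.0494) and -0.35 with NEB (SE 0.11, adjusted p = 0.0419). Here 0 of 5 members passed with NEB in basal heads (14.4% of all genes), 1 of them at an unadjusted p under 0.05 and 0 by DESeq2, and 1 of 5 passed after HS (15.8% of all genes). The 3 control HS NEB pools were at 1.88, 1.97 and 1.90 on the log2 scale and the Mettl3 RNAi HS pools at 1.71, 1.61 and 1.35, without overlap. The NEB call was lost without Mettl3 HS NEB replicate 2 or 3, or control HS NEB replicate 1, 2 or 3 (differences of -0.365 to -0.146, adjusted p of 0.0837 to 0.37). The SYS call was lost under DESeq2 (adjusted p = 0.11), with library size alone (-0.18, adjusted p = 0.152) and without Mettl3 HS SYS replicate 1 (-0.24, adjusted p = 0.107) or 2 (-0.25, adjusted p = 0.185) or control HS SYS replicate 1 (-0.14, adjusted p = 0.528).
The tra difference was -0.25 basal (SE 0.11, adjusted p = 0.186) and -0.02 after HS (SE 0.11, adjusted p = 0.942), and its basal interval of -0.49 to -0.01 includes the -0.43 of dsx. For Sxl after HS the SYS difference was -0.24 (adjusted p = 0.0724), and it passed without Mettl3 HS SYS replicate 1 (-0.375, adjusted p = 0.0043) and with no filter on low counts (-0.265, adjusted p = 0.0238). In basal heads the Sxl difference was 0.01 with SYS (SE 0.09, adjusted p = 0.953), with pools at -0.05 and -0.15 in control and -0.07 and -0.10 in Mettl3 RNAi. With NEB it was -0.85 (SE 0.28, adjusted p = 0.0511), with pools at -0.28, -0.90 and -1.37 in control and -1.32, -1.64 and -2.45 in Mettl3 RNAi. The IPs of these pools held 1136, 750 and 291 reads of Sxl in control and 430, 59 and 36 in Mettl3 RNAi. The part of depth in this difference was not tested. The NEB value of Sxl passed with no filter on low counts (adjusted p = 0.00034), without the pool block (0.0267) and without Mettl3 basal NEB replicate 1 (0.026) or control basal NEB replicate 3 (0.00737), and was at -0.56 (adjusted p = 0.281) without control basal NEB replicate 1.

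The effect of HS on IP over input was next tested in control heads, and no member passed. In control heads 0 of 5 members passed the test of HS against basal in IP over input with SYS (0.169% of all genes) and 0 of 5 with NEB (0.254%). With SYS, 3 members were at an unadjusted p under 0.05 and 0 passed by DESeq2, and with NEB both counts were 0. The largest difference with SYS was 0.30 for Sxl (SE 0.09, adjusted p = 0.217), which passed in a fit of only the groups compared (0.29, adjusted p = 0.0176) and with no filter on low counts (0.31, adjusted p = 0.0406), with dsx at 0.30 (SE 0.12, adjusted p = 0.390).

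In brains, tra2 was lower after HS in both genotypes and dsx was lower with Mettl3 RNAi. fru was higher in both, though not with library size as the only scaling (-0.07 and -0.15). In control brains 2 of 5 members passed the test of HS against basal, against 48.9% of all genes, and in Mettl3 RNAi brains 4 of 5, against 46.5%. With the replicate number as a block, 4 of 5 members passed in control brains. These were dsx (adjusted p = 0.00405) and Sxl (adjusted p = 0.0367) besides tra2 and fru. The check of pairing could not tell matched replicates there from sets of libraries of different depth. This count is therefore given as an alternative fit only. dsx passed in Mettl3 RNAi brains (fold 0.723), and in control brains (fold 0.75) it missed the threshold without the block. fru passed in both (folds 1.26 in control and 1.14 in Mettl3 RNAi brains, and below 1 with library size alone). With library size alone the median over all genes was -0.415 in control and -0.39 in Mettl3 RNAi brains on the log2 scale, and fru lay above it.

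dsx, the transcription factor at the end of the cascade, had the largest log2 fold change of the members in both genotypes. In Mettl3 RNAi brains it was at 20.7 to 24.3 CPM basal (median 22.7) and at 13.4 to 18.8 CPM after HS (median 15.4), and the 2 groups did not overlap. The log2 fold change was -0.47 (SE 0.09, adjusted p = 0.00074), with all 6 HS libraries below all 6 basal libraries, and an exact permutation test over the 12 libraries gave p = 0.00216, the smallest it can give. Libraries 1 to 3 alone gave -0.48 (adjusted p = 0.0303) and libraries 4 to 6 alone -0.47 (adjusted p = 0.0175), and the call held in all 12 fits without 1 library (-0.52 to -0.42, largest adjusted p 0.00239).
In control brains dsx ran from 15.2 to 25.7 CPM (median 20.3) basal and from 11.5 to 25.3 CPM (median 13.25) after HS, so the groups overlapped. The log2 fold change was -0.42 (SE 0.19, adjusted p = 0.0935). By set, libraries 1 to 3 alone gave -0.24 (adjusted p = 0.53) and libraries 4 to 6 alone -0.61 (adjusted p = 0.0265). Control HS replicate 1, at 25.3 CPM, lay at the level of basal replicate 1 (25.7 CPM), and without it the log2 fold change was -0.63 (adjusted p = 0.00398). With the replicate block dsx was at -0.45 and Sxl at 0.22. With library size alone dsx in control brains was at -0.81 (adjusted p = 0.0024), where the median over all genes was -0.415.

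fru, the transcription factor of the courtship circuit, was at 110 to 172 CPM (median 144) in basal control brains and at 164 to 197 CPM (median 178) after HS. The log2 fold change was 0.33 (SE 0.09, adjusted p = 0.0101), and the exact permutation p was 0.0108. In Mettl3 RNAi brains it was 0.19 (SE 0.07, adjusted p = 0.0396). By set, libraries 1 to 3 alone gave 0.50 in control (adjusted p = 0.00482) and 0.305 in Mettl3 RNAi brains (adjusted p = 0.0047). Libraries 4 to 6 alone gave 0.16 (adjusted p = 0.213) and 0.08 (adjusted p = 0.371), and with library size alone the values were -0.07 and -0.15. The Mettl3 RNAi call was also lost with no filter on low counts (adjusted p = 0.115) and without Mettl3 basal replicate 1, 2 or 3 or Mettl3 HS replicate 1, 2, 5 or 6 (adjusted p of 0.0637 to 0.0941).
tra2, the partner of Tra, fell from 14.9 to 16.9 CPM (median 16.2) to 12.03 to 15.4 CPM (median 14.1) in control brains, with a log2 fold change of -0.165 (SE 0.06, adjusted p = 0.0469). In Mettl3 RNAi brains it fell by 0.22 (SE 0.08, adjusted p = 0.035). In control brains libraries 1 to 3 alone gave -0.15 (adjusted p = 0.219) and libraries 4 to 6 alone -0.20 (adjusted p = 0.143). In Mettl3 RNAi brains the sets gave -0.18 (adjusted p = 0.264) and -0.275 (adjusted p = 0.0345). Both calls were lost under DESeq2 (adjusted p = 0.217 and 0.0833). The control call was lost in 8 of 12 fits without 1 library, namely control basal replicate 2, 3, 5 or 6 or control HS replicate 1, 3, 4 or 6 (adjusted p of 0.0513 to 0.0845). The Mettl3 RNAi call was lost in 6 of 12, namely Mettl3 basal replicate 1, 5 or 6 or Mettl3 HS replicate 1, 3 or 5 (adjusted p of 0.0523 to 0.0719).

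Sxl, the switch gene, was at 226 to 423 CPM (median 349.5) in basal control brains and at 336.5 to 470.1 CPM (median 376) after HS, with broad overlap (log2 fold change 0.20, SE 0.14, adjusted p = 0.243). Libraries 1 to 3 alone gave 0.31 (adjusted p = 0.0805) and libraries 4 to 6 alone 0.11 (adjusted p = 0.315). In Mettl3 RNAi brains, where the libraries lay closer together, it was at 271 to 310.5 CPM (median 289) basal and 294 to 327 CPM (median 316.5) after HS. It rose by 0.13 (SE 0.04, adjusted p = 0.0132), although with library size alone the direction turned (-0.215), and the call was lost with no filter on low counts (adjusted p = 0.0922). Libraries 1 to 3 alone gave 0.17 (adjusted p = 0.04) and libraries 4 to 6 alone 0.08 (adjusted p = 0.278). tra did not pass in either: 0.12 (SE 0.08, adjusted p = 0.265) in control and -0.14 (SE 0.08, adjusted p = 0.187) in Mettl3 RNAi brains. With library size alone tra passed as lower in both, at -0.28 (adjusted p = 0.0119) and -0.49 (adjusted p = 2e-04). The medians over all genes were then -0.415 and -0.39. By set tra was at 0.04 and 0.18 in control brains (adjusted p = 0.845 and 0.117), and at -0.34 (adjusted p = 0.0292) and 0.05 (adjusted p = 0.643) in Mettl3 RNAi brains, in libraries 1 to 3 and 4 to 6.
Markers of cell types moved with HS as well. The summed level of the 5 neuron markers was 5750 to 8980 CPM in basal and 9420 to 10700 CPM in HS control brains, and that of the 5 retina markers 17000 to 27100 CPM and 26400 to 48400 CPM. Their part in the results on these genes was not tested.

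**Figure D2:**
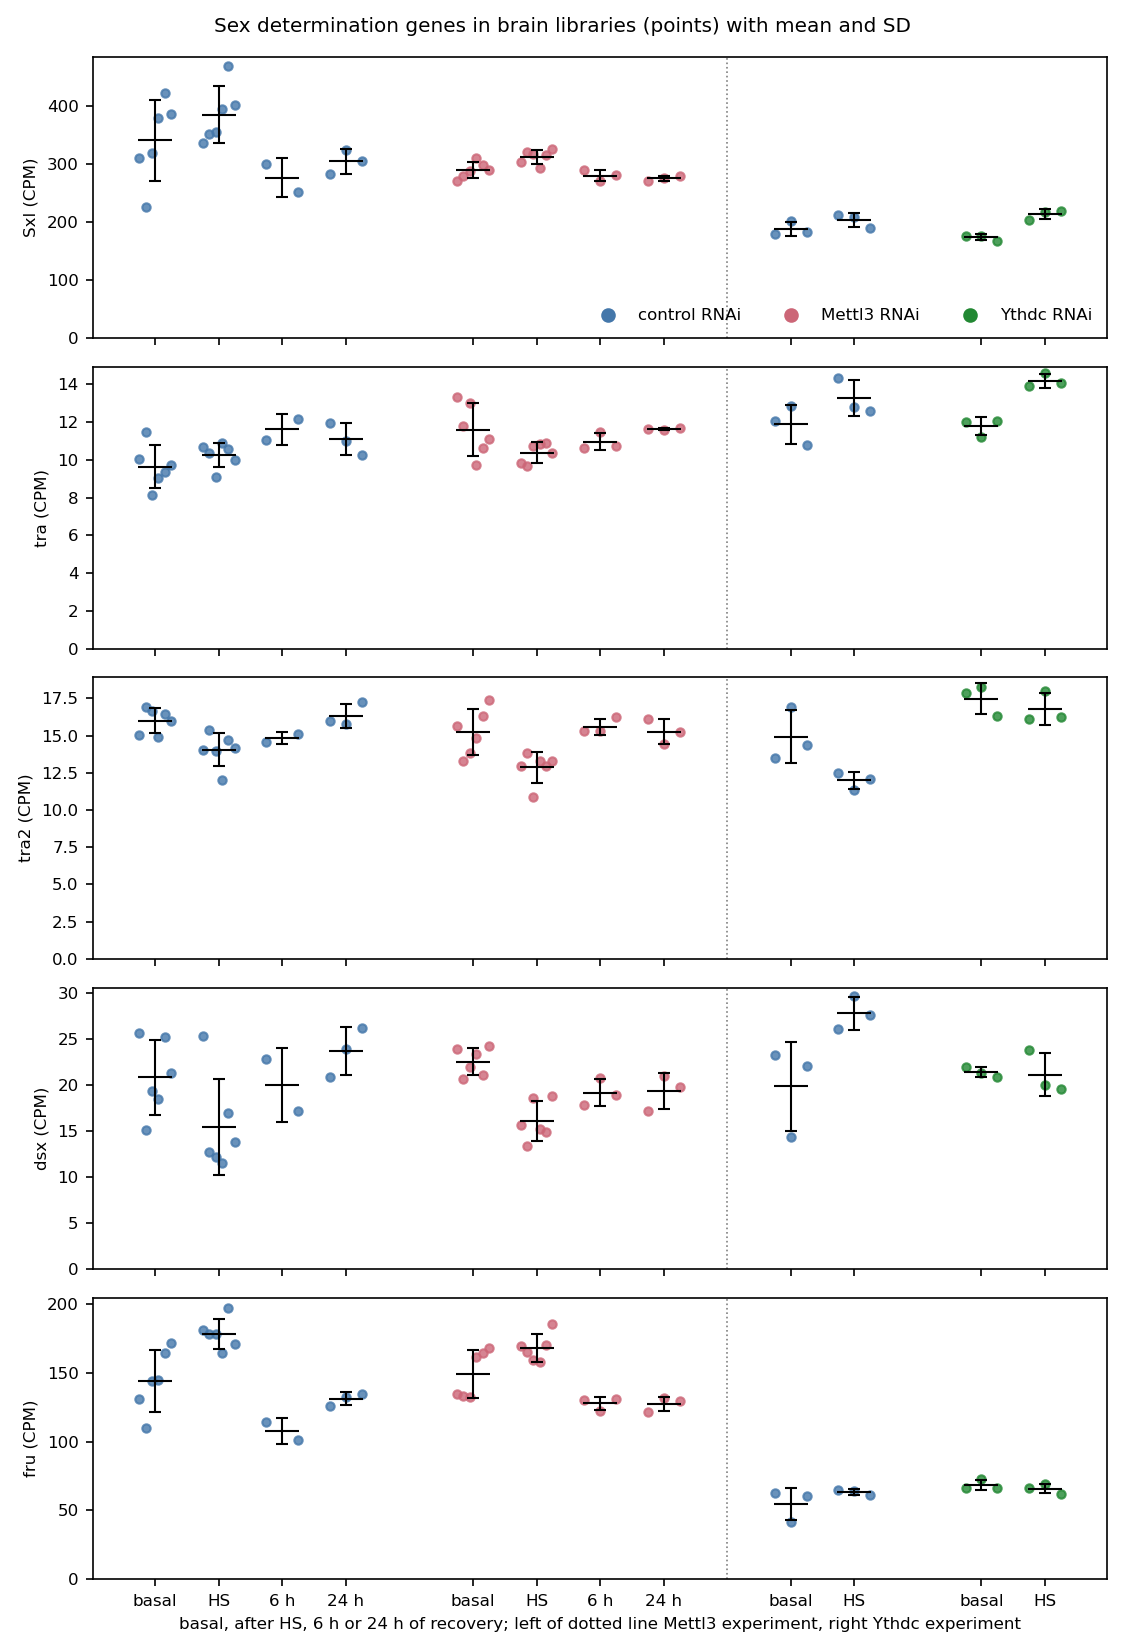
CPM (vertical axis, from 0) of the 5 genes in each brain library, with group mean and SD, in the Mettl3 experiment (left of the dotted line) and the Ythdc experiment (right). After HS, dsx lay at 13.4 to 18.8 CPM in Mettl3 RNAi brains, below all 6 basal libraries, and Sxl after HS lay at 294 to 327 CPM with Mettl3 RNAi, below all 6 control HS libraries.

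**Figure D3:**
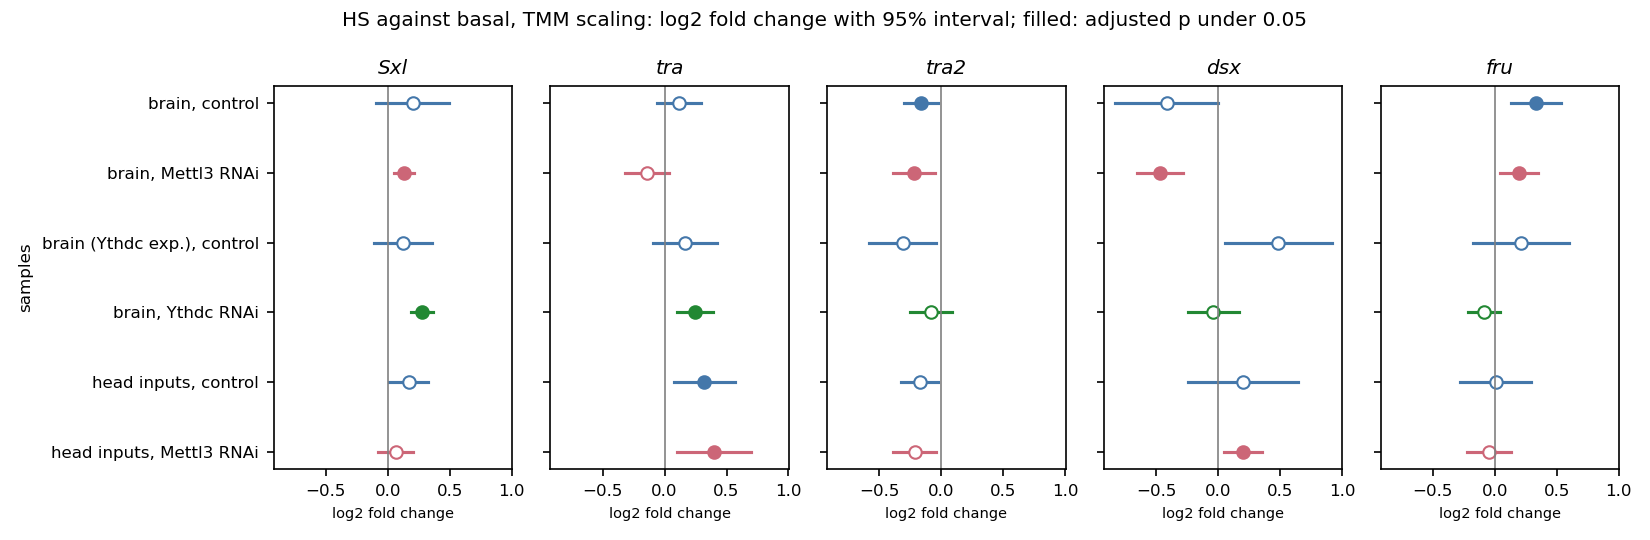
Log2 fold change of HS against basal (horizontal axis) with 95% intervals in 6 comparisons, with filled points where the adjusted p was under 0.05. dsx fell in brains of the Mettl3 experiment with Mettl3 RNAi and rose in Mettl3 RNAi head inputs, where library size alone gives -0.02. The filled rises of fru and Sxl in brains and of tra with Ythdc RNAi also turn direction under that scaling.

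The HS response of the genes in Mettl3 RNAi brains was then set against that in control brains. In the test of the interaction of Mettl3 RNAi and HS, 0 of 5 members passed, as did 0% of all 10503 genes tested with edgeR (627 genes at an unadjusted p under 0.05 and 10 genes by DESeq2). The largest interaction was -0.25 for tra (SE 0.11, unadjusted p = 0.0373, adjusted p = 0.802). For dsx it was -0.05 (95% interval -0.51 to 0.41), which includes differences in either direction about as large as the fall itself.

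In whole heads, tra was higher after HS in both genotypes, but only in the fit without the pool number as a block. With that block, which the check of pairing favoured in the inputs, neither tra call held. dsx was higher with Mettl3 RNAi, though not with library size alone (-0.02). In the inputs of both antibody experiments fitted together, 1 of 5 members passed in control heads (35.8% of all genes) and 2 of 5 in Mettl3 RNAi heads (40.6%). tra rose in control (0.32, SE 0.11, adjusted p = 0.045) and in Mettl3 RNAi heads (0.40, SE 0.14, adjusted p = 0.0372), and with library size alone it was at 0.07 and 0.17 and did not pass. dsx rose in Mettl3 RNAi heads (0.20, SE 0.07, adjusted p = 0.0391), though library size alone gave -0.02. This call was lost without Mettl3 basal NEB replicate 1 or 2, Mettl3 basal SYS replicate 1 or 2 or Mettl3 HS NEB replicate 2 or 3 (0.15 to 0.21, adjusted p of 0.0583 to 0.102). tra2 missed the threshold at -0.18 in control (adjusted p = 0.0665) and -0.22 in Mettl3 RNAi heads (adjusted p = 0.0503). Markers of muscle and retina were higher after HS in these inputs, without overlap within an antibody and genotype. The summed level of the 5 muscle markers was 1570 to 1720 CPM basal and 2200 to 2280 CPM after HS in control NEB inputs and 3280 to 3820 and 4940 to 5840 CPM in Mettl3 RNAi SYS inputs. That of the 5 retina markers was 11100 to 11300 and 13800 to 14800 CPM in control NEB inputs, and the part of either in these results was not tested.

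The antibody experiments were also fitted alone. tra was at 14.3 and 20.6 CPM in basal and 25.0 and 27.2 CPM in HS control SYS inputs, against 18.3, 19.2 and 21.9 CPM basal and 21.8, 21.8 and 20.4 CPM after HS in control NEB inputs. The SYS pools alone gave 0.585 (adjusted p = 0.337) and the NEB pools alone 0.11 (adjusted p = 0.271) in control heads, and 0.825 (adjusted p = 0.0602) and 0.10 (adjusted p = 0.323) in Mettl3 RNAi heads. The control call was lost without control basal NEB replicate 1 or 2, control HS NEB replicate 1 or 2, or any of the 4 control SYS libraries (adjusted p of 0.0536 to 0.1). The Mettl3 RNAi call was lost without Mettl3 basal NEB replicate 3 or Mettl3 basal SYS replicate 1 or 2 (adjusted p of 0.0503 to 0.0967). With the pool number as a block the tra calls were lost (adjusted p = 0.0549 and 0.0759), and Sxl in control heads passed (0.17, adjusted p = 0.0482).

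For dsx in control heads the inputs of the antibody experiments gave values of opposite sign. dsx rose from 51.8, 51.9 and 67.0 CPM to 81.6, 83.4 and 91.2 CPM in the NEB inputs, without overlap (0.59, SE 0.09, adjusted p = 0.000325 in the NEB pools alone). In the SYS inputs it was at 43.79 and 58.4 CPM basal and at 30.0 and 43.25 CPM after HS, without overlap, though the closest values lay side by side (SYS pools alone -0.475, adjusted p = 0.474). Control HS SYS input replicate 1 was also low in fru, at 82.8 CPM against 136.8 CPM in replicate 2. The difference of the HS effect between NEB and SYS inputs was 1.10 (SE 0.25, adjusted p = 0.343), where 0 of 5 members and 0% of all genes passed in edgeR's test. By DESeq2 it was 1.06 with an adjusted p of 0.0257, 1 of 5 members passed and 37 genes did in all. Without control HS SYS input replicate 2 the dsx difference was 1.39 (adjusted p = 0.00969) and that of fru 0.83 (adjusted p = 0.012). At an unadjusted p under 0.05 there were 2 members. In the SYS inputs of Mettl3 RNAi heads dsx was at 49.75 and 52.04 CPM basal and 54.9 and 54.8 CPM after HS.

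Between whole heads and brains, the effect of HS on dsx differed in Mettl3 RNAi flies. The log2 fold change of dsx in head inputs minus that in brains was 0.62 (SE 0.12, adjusted p = 0.00491), with 1 of 5 members and 5.79% of all genes past the threshold. In control flies the difference was 0.60 (SE 0.30, adjusted p = 0.314), and 0 of 5 members passed against 4.64% of all genes, with 0 members at an unadjusted p under 0.05 and 0 by DESeq2. Tissue and library kit changed together in this comparison and cannot be told apart.

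**Figure D4:**
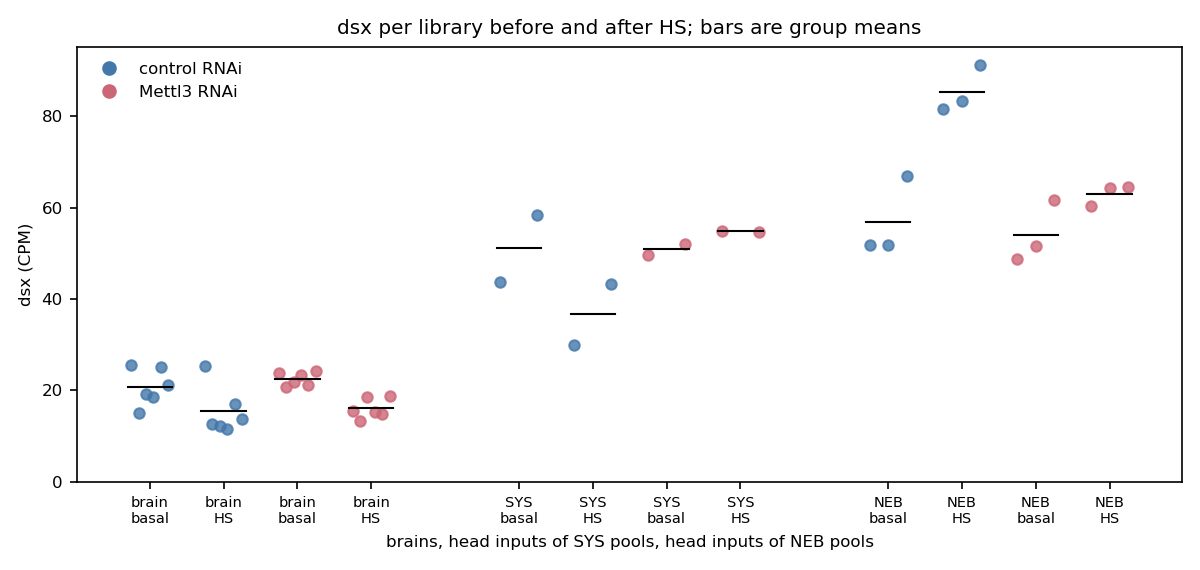
CPM of dsx (vertical axis, from 0) in each brain, SYS head input and NEB head input library, basal and HS, for control and Mettl3 RNAi, with bars for group means. In control heads the NEB inputs went from 51.8 to 67.0 CPM up to 81.6 to 91.2 CPM with HS, while the SYS inputs were at 43.8 and 58.4 CPM basal and at 30.0 and 43.3 CPM after HS.

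With Mettl3 RNAi the level of Sxl was lower in HS brains, and no other member passed the test in basal or HS brains or head inputs. In basal brains 0 of 5 members passed the test of Mettl3 RNAi against control (2.19% of all genes), with 1 member, tra, at an unadjusted p under 0.05 and 0 by DESeq2. In HS brains 1 of 5 passed (6.32% of all genes). In head inputs 0 of 5 passed in basal flies (4.13% of all genes) and 0 of 5 after HS (2.84%), with 0 and 1 members at an unadjusted p under 0.05 and 0 by DESeq2 in each.

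After HS, Sxl was at 336.5 to 470.1 CPM (median 376) in control brains and at 294 to 327 CPM (median 316.5) in Mettl3 RNAi brains, without overlap. The log2 fold change was -0.31 (SE 0.07, adjusted p = 0.028), lower in 6 of 6 Mettl3 RNAi libraries than in any control library, and the exact permutation p was 0.00216, the smallest the design allows. Libraries 1 to 3 alone gave -0.14 (adjusted p = 0.116) and libraries 4 to 6 alone -0.45 (adjusted p = 0.0381), and the call was lost in 5 of the 12 fits without 1 library, namely without control HS replicate 6 or Mettl3 HS replicate 1, 3, 4 or 5 (adjusted p of 0.0531 to 0.0631).
In basal brains Sxl was at 226 to 423 CPM in control and at 271 to 310.5 CPM in Mettl3 RNAi (log2 fold change -0.23, SE 0.12, adjusted p = 0.369), with -0.41 (adjusted p = 0.0301) in libraries 4 to 6 alone and -0.01 (adjusted p = 0.981) in libraries 1 to 3 alone. Control basal libraries 4 to 6 were at 379.7 to 423.4 CPM and libraries 1 to 3 at 226.3 to 319.3 CPM. tra in basal brains was 0.27 higher with Mettl3 RNAi on the log2 scale (SE 0.10, adjusted p = 0.215), at 9.73 to 13.3 CPM against 8.15 to 11.5 CPM.
In HS head inputs the antibody experiments gave values of opposite sign for dsx with Mettl3 RNAi, a difference that was not tested. In the NEB inputs dsx was at 81.6, 83.4 and 91.2 CPM in control and at 60.5, 64.3 and 64.6 CPM in Mettl3 RNAi HS heads, without overlap, and the NEB pools alone gave -0.41 (adjusted p = 0.0012). In the SYS inputs it was at 30.0 and 43.3 CPM in control and at 54.9 and 54.8 CPM with Mettl3 RNAi, and the SYS pools alone gave 0.58, where no gene passed.

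After recovery from HS, no member passed the test against basal or the test of Mettl3 RNAi against control. At 6 h of recovery against basal, 0 of 5 members passed in control (6.81% of all genes) and in Mettl3 RNAi brains (2.04%), and at 24 h 0 of 5 in control (0.235%) and in Mettl3 RNAi brains (0%, of 9870 genes, with 2047 at an unadjusted p under 0.05 and 654 by DESeq2). Mettl3 RNAi against control gave 0 of 5 at 6 h (3% of all genes) and at 24 h (9.19%). At an unadjusted p under 0.05 there was 1 member at 6 h against basal in Mettl3 RNAi brains, 0 in the other 3 tests against basal, and 1 and 2 members in the tests of Mettl3 RNAi against control at 6 h and 24 h, where DESeq2 passed fru at 6 h and Sxl at 24 h. Against basal DESeq2 passed 0 members at either time.

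dsx in Mettl3 RNAi brains was at 17.9 to 20.7 CPM at 6 h and 17.2 to 21.0 CPM at 24 h, between its HS and basal levels, with log2 fold changes against basal of -0.21 (adjusted p = 0.198) and -0.20 (adjusted p = 0.294). fru at 6 h was at 101 and 114 CPM in the 2 control libraries and at 123 to 131 CPM in Mettl3 RNAi libraries, a log2 fold change of 0.25 (SE 0.06, adjusted p = 0.102, and 0.0291 by DESeq2). Sxl at 24 h was at 284 to 325 CPM in control and at 271 to 280 CPM in Mettl3 RNAi libraries, a log2 fold change of -0.14 (SE 0.04, adjusted p = 0.0966, and 0.0453 by DESeq2).

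In HS brains tra2 was higher with Ythdc RNAi than in control, and no member passed in basal brains. In basal brains 0 of 5 members passed the test of Ythdc RNAi against control (3.89% of all genes), with 0 at an unadjusted p under 0.05 and 0 by DESeq2. After HS 1 of 5 passed (5.3% of all genes). tra2 was at 12.5, 11.3 and 12.1 CPM in control HS libraries and at 16.1, 18.0 and 16.2 CPM with Ythdc RNAi, without overlap, and the log2 fold change was 0.47 (SE 0.07, adjusted p = 0.0183). The call was lost without control HS replicate 8 (0.425, adjusted p = 0.0714), Ythdc HS replicate 1 (0.49, adjusted p = 0.0547) or Ythdc HS replicate 2 (0.41, adjusted p = 0.0713). dsx was at 26.1, 29.6 and 27.5 CPM in control HS libraries and at 23.8, 20.0 and 19.6 CPM with Ythdc RNAi, also without overlap, with a log2 fold change of -0.41 (SE 0.10, adjusted p = 0.0566, and 0.00439 by DESeq2), and it passed without Ythdc HS replicate 1 (-0.52, adjusted p = 0.0485). Without control basal replicate 8, tra2 passed in basal brains too (0.30, adjusted p = 0.0464). The summed level of the 5 fat body markers was lower with Ythdc RNAi in basal brains (30.8 to 60.4 CPM against 81.7 to 107 CPM in control), and after HS it was 40.5 to 100 CPM against 92.6 to 160 CPM. The roX RNAs together were at 2740 to 3010 CPM with Ythdc RNAi and 2190 to 2520 CPM in control after HS. Their part in the results on tra2 and dsx was not tested.

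HS against basal was also tested within the Ythdc experiment, and in its control brains no member passed. In these control brains of the Ythdc experiment 0 of 5 members passed HS against basal (18.7% of all genes), with 2 at an unadjusted p under 0.05 and 1, dsx, by DESeq2. tra2 was at 13.5 to 16.9 CPM basal and at 11.3 to 12.5 CPM after HS, without overlap. It passed with library size alone (-0.63, adjusted p = 0.00304), where the median over all genes was -0.33. dsx was at 23.2, 14.3 and 22.0 CPM basal and at 26.1, 29.6 and 27.5 CPM after HS, a log2 fold change of 0.49 (SE 0.18, adjusted p = 0.103), and without control basal replicate 8 it was 0.29 (adjusted p = 0.0238) and Sxl was 0.17 (adjusted p = 0.0444). The difference of this dsx effect from that in the Mettl3 experiment was 0.93 (SE 0.32, adjusted p = 0.303), where 0 of 5 members and 0.393% of all genes passed, with 1 member at an unadjusted p under 0.05 and 0 by DESeq2.
With Ythdc RNAi, 2 of 5 members passed, against 58.6% of all genes. tra2 was not among them, at 16.3 to 18.3 CPM basal and 16.1 to 18.0 CPM after HS. With library size alone tra2 passed as lower (-0.49, adjusted p = 0.000921), where the median over all genes was -0.416. Sxl rose from 168 to 177 CPM to 204 to 219 CPM (0.28, SE 0.04, adjusted p = 0.000883) and tra from 11.2 to 12.1 CPM to 13.9 to 14.6 CPM (0.25, SE 0.06, adjusted p = 0.0118), each without overlap, although with library size alone both directions turned (-0.13 and -0.16). In the test of the HS effect with Ythdc RNAi minus that in control, 0 of 5 members passed, against 0.299% of all genes, with 1 member, dsx, at an unadjusted p under 0.05 (-0.50, adjusted p = 0.338) and 0 by DESeq2. The difference was 0.18 for Sxl (95% interval -0.03 to 0.40) and 0.11 for tra (-0.15 to 0.37).

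**Figure D5:**
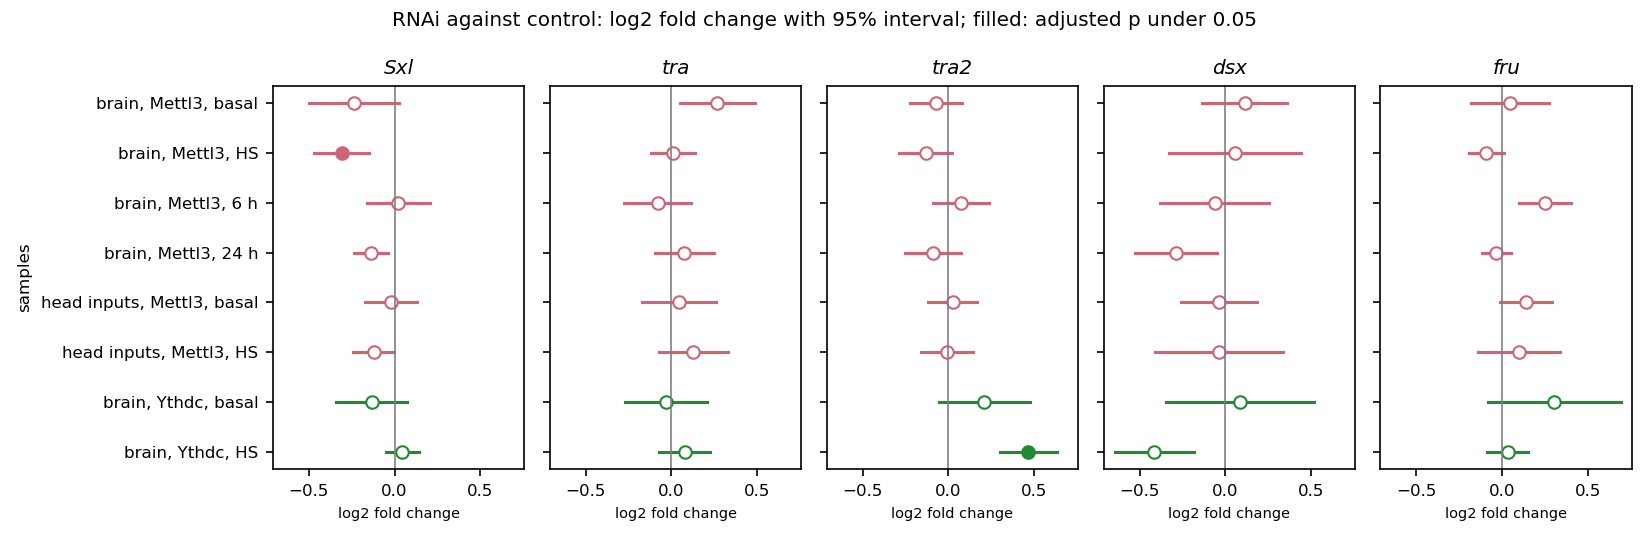
Log2 fold change of Mettl3 RNAi or Ythdc RNAi against control (horizontal axis) with 95% intervals in brains and head inputs, with filled points where the adjusted p was under 0.05. The filled points are Sxl in HS brains with Mettl3 RNAi (-0.31) and tra2 in HS brains with Ythdc RNAi (0.47).

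Genes that work with the cascade were counted from lists fixed with earlier results of these data known. Of 14 Sxl splicing and m6A factors tested in control brains, 9 fell and 2 rose after HS, with a median log2 fold change of -0.35 against -0.02 over all genes. Over all genes 29.2% fell and 19.7% rose in that test. Mettl14, the partner of Mettl3, fell by 1.09, vir, the scaffold of the m6A writer, by 1.01, Spf45, a splicing factor, by 0.77 and U2af38, which reads the 3′ splice site, by 0.55 on the log2 scale. In Mettl3 RNAi brains 9 of the 14 fell and 0 rose (median -0.31), against 28.2% and 18.3% of all genes. With Mettl3 RNAi against control, 3 genes of the list fell in HS brains, against 2.72% of all genes: Mettl3 (-3.01), Ythdc1 (-0.84) and fl(2)d (-0.21), a subunit of the m6A writer. Mettl3 is the target of the RNAi, so its fall was fixed in advance, and the paper had reported the lower Ythdc1. The count is therefore no measure of the list as a whole.
Among the Tra and Tra2 partners, the SR protein gene x16 (0.20, and -0.20 with library size alone) and the kinase gene Doa (0.43) rose after HS in control brains. Of 9 Fru partners and fru-linked genes, 0 rose and 2 fell, both smaller shares than the 19.7% and 29.2% of all genes, namely HDAC1 (-1.08), a histone deacetylase, and bon (-0.29), a chromatin cofactor. Of 7 Dsx partners and targets, 2 rose and 1 fell, the faller being ix (-0.47), whose protein acts with female Dsx. Among 6 tested X-signal genes and other early regulators of Sxl in embryos, run (-1.32) and da (-0.62) fell and gro rose (0.18). N, a Sxl target known outside the sex pathway, rose by 0.48. With library size alone, gro (-0.22), Ythdc1 (-0.04), how (-0.02), x16 (-0.20) and bab2 (-0.20) turned direction among the genes called in control brains. The median of the fru-linked list was -0.12.

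In the m6A-IP of basal control heads, 9 of the 14 Sxl splicing and m6A factors were above input with SYS and 4 below, with a median log2 fold change of 0.55 against -0.05 over all genes. Over all genes 36.2% were above and 37.7% below input. Ythdc1 (1.86), Flacc (1.74), a subunit of the m6A writer, and fl(2)d (1.40) stood beside tra (1.46). With Mettl3 RNAi in basal heads, IP over input fell for 2 of the 14 factors (8.39% of all genes) and rose for 0 (1.94% of all genes), namely Ythdc1 (-0.61, adjusted p = 0.00023) and fl(2)d (-0.61, adjusted p = 0.000267), beside dsx at -0.43. Among Tra and Tra2 partners it fell for x16 (-0.34), among fru-linked genes for bon (-0.49) of 9, and among 8 Dsx partners and targets for 0. After HS it fell for 3 of the 14 factors (11.1% of all genes), fl(2)d (-0.65), Ythdc1 (-0.60) and how (-0.44), and rose for U2af50 (0.43; 3.44% of all genes rose). After HS it also fell for bon (-0.86), gro (-0.46) and N (-0.37), while the median of the 14 factors was 0.001 against 0.05 over all genes. These values with Mettl3 RNAi are from SYS. With NEB 2 of the 14 factors were lower and 0 higher in basal heads (14% and 0.352% of all genes). After HS the counts were the same (14.9% and 0.861%), so U2af50 was not called higher. With NEB 0 Tra and Tra2 partners, x16 among them, were lower basal, and 4 of 9 fru-linked genes were lower in each state.

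The 2 genes most like each member were ranked by Pearson's r of log2 CPM over the 8 group means of the Mettl3 experiment, among 6219 genes, which gives a description over points that share libraries. For dsx they were Hs6st (0.952) and Cubn (0.946), for fru oc (0.993) and chrb (0.991), for tra2 PICK1 (0.991) and CG11779 (0.981), for Sxl CG8745 (0.984) and Pka-C1 (0.979), and for tra Pi3K68D (0.875) and slif (0.873). The SD of the group means was 0.227 for dsx, 0.235 for fru, 0.165 for Sxl, 0.111 for tra2 and 0.10 for tra on the log2 scale.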

How the data were processed

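RNA was measured in 87 libraries from male flies, 47 from brains and 40 from heads (20 inputs and 20 m6A-IPs). The authors deposited 1 table of raw read counts per gene for 17562 genes, of which 708 had no read in any library. Per the methods, reads overlapping the exons of a gene were counted with summarizeOverlaps in union mode on the FlyBase annotation. The submitters' processing notes name Trim Galore, STAR 2.7.3a, SAMtools, DESeq2, deepTools and the dm6 genome. Strand use in the counting is not given in the sources used here. No per-sample column was left out (0 columns), and the table holds neither fold changes nor p-values.

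The 5 members and all gene lists were chosen with earlier results of these data known. The genes named in the text were the members, the genes of the lists that passed the test with the largest changes, the markers and the 2 genes most like each member in their pattern over groups. One gene of the lists is not reported here. Counts were tested with edgeR 4.0.16 in R 4.3.3 (TMM scaling, filterByExpr with a minimum count of 10 and a minimum total of 15, quasi-likelihood test). All p-values were adjusted over all genes tested by the method of Benjamini and Hochberg, with a threshold of 0.05. The standard error is the fitted log2 fold change divided by the square root of F, and intervals are at 95%. Each comparison of brains was fitted on the groups compared, recovery against basal replicates 1 to 3. Head inputs of both antibody experiments were fitted together with a term for the antibody. The 16 SYS libraries were fitted together with the pool as a block and an IP term per group, and the 24 NEB libraries in the same way. Per the methods, replicates were biological, from crosses of different parents, with technical repeats in some brain experiments. The methods state 3 biological replicates for each brain condition, and also technical repeats with at least 3 to 6 biological replicates. Whether all 6 libraries of a basal or HS brain group are biological replicates is therefore not settled here. The labels do not tie each library to a cross, so p-values measure the spread between libraries, part of which may be technical. Exact permutation tests were 2-sided over the 924 splits of 12 libraries. They exchange all 12 libraries freely, so they take no account of technical repeats or of the sets of different depth.

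Whether equal replicate numbers pair samples was checked by the correlation of their deviations from the group means. In control brains, HS against basal, all 6 correlations were 0.279 to 0.574. In the head inputs all were 0.103 to 0.702, but the SYS experiment has only 2 pairs. In the other brain comparisons at least 1 pair was at 0.1 or below. A replicate block was therefore read as pairing in the head inputs. In control brains, HS against basal, only 3 of the 6 pairs had their highest correlation at the same number. The brain libraries also form sets of different depth, and a difference between these sets alone would give positive correlations. The check therefore cannot show pairing in control brains, and the block is given there as an alternative fit only.

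Total counts ranged from 1318964 in an NEB m6A-IP to 65901563 in a brain library, and CPM were scaled by library total and TMM factor within each experiment. Alternatives were DESeq2 1.42.0, library size as the only scaling, no filter on low counts, the replicate block or its absence, each replicate left out, replicates 1 to 3 or 4 to 6 alone, and only the groups compared. The pools of each antibody alone and the differences between tissues and experiments were added after the data were seen. The fits were also run on counts simulated from their own model with few genes changed. That run cannot show whether the calls hold in these data, where many genes changed with HS. Figures were drawn with matplotlib 3.10.9 in Python 3.11.15.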

Additional observations from a re-analysis of the deposited data

Results flagged for a closer look

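In the brains, tra2 in Mettl3 RNAi HS replicate 3 stood at 10.9 CPM, apart from the other 5 libraries of its group, which reached up to 13.85 CPM. In 24 groups tested for such a library this was the only case, and chance gives about 1 in 20.

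Of 75 tests of a difference between effects on a member, 5 passed the threshold in edgeR's test. IP over input of dsx was lower with Mettl3 RNAi than in control with the SYS antibody, by -0.43 basal and -0.6 after HS on the log2 scale. In HS heads IP over input of fru was lower with Mettl3 RNAi than in control, by -0.26 with SYS and -0.35 with NEB. The effect of HS on dsx with Mettl3 RNAi differed by 0.62 between head inputs and brains. Of all genes, 10.3% passed in the SYS test of IP over input in basal heads and 14.5% in that after HS. The share was 15.8% in the NEB test after HS and 5.79% for head inputs minus brains.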

How the results depend on the processing

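Over all fits, 2478 values of members under an alternative kept their result, either called in both fits or called in neither. These are therefore not 2478 calls that held. Among called values, 92 lost the call and 8 turned direction, and 67 values without a call gained one. Changes of sign in values without a call were not counted. With library size alone, the directions that turned were fru in control brains after HS (-0.066), Sxl (-0.215) and fru (-0.154) in Mettl3 RNAi brains, Sxl (-0.134) and tra (-0.163) in Ythdc RNAi brains, dsx in Mettl3 RNAi head inputs (-0.023) and Sxl in the SYS m6A-IP of control HS heads (-0.135). The other was Sxl in that m6A-IP with the NEB antibody (-0.344). Library size alone moved the median log2 fold change of all genes after HS to between -0.202 and -0.416 in brains and head inputs, and that of IP over input to between -0.268 and -0.969. The cause of these and the following changes was not tested.

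Some counts of members called moved by more than 1.5 times. The share of all genes called in the same fit is not given beside these counts or those without 1 library. They describe only the dependence on processing and are not read as results on the members. Under DESeq2 the count was 1 for control brains HS against basal, 1 for Mettl3 RNAi against control at 6 h and 1 at 24 h, 2 for Ythdc RNAi against control after HS, and 1 for HS in the controls of the Ythdc experiment. It was 2 for control head inputs HS against basal, 1 for SYS IP over input after HS, 2 for heads minus brains with Mettl3 RNAi, and 1 for NEB minus SYS inputs. With library size alone it was 1 for HS in the controls of the Ythdc experiment and 5 with Ythdc RNAi, where the median log2 fold change of all genes was -0.33 and -0.416. It was 1 for SYS and 0 for NEB IP over input with Mettl3 RNAi after HS, and 2 for heads minus brains. With no filter it was 2 for Mettl3 RNAi brains HS against basal, 2 for Ythdc RNAi after HS, 0 and 1 for control and Mettl3 RNAi head inputs HS against basal, and 1 each for SYS control HS against basal, NEB Mettl3 RNAi against control basal and NEB Mettl3 RNAi HS against basal in IP over input. With the replicate block it was 4 for control brains HS against basal and 1 for Mettl3 RNAi head inputs HS against basal. Without the pool block of the IP fits, IP over input with Mettl3 RNAi gave 0 with SYS basal and 0 after HS, and 1 and 0 with NEB. The block changed no other count of members by over 1.5 times. Replicates 1 to 3 alone gave 1 for control brains HS against basal and 0 for Mettl3 RNAi against control after HS. Replicates 4 to 6 alone gave 1 for control and 2 for Mettl3 RNAi brains HS against basal, and 1 for Mettl3 RNAi against control basal. SYS pools alone gave 0 for head inputs HS against basal in both genotypes. NEB pools alone gave 1 for Mettl3 RNAi against control after HS, and 2 and 0 for control and Mettl3 RNAi HS against basal. NEB in place of SYS gave 0 basal and 1 after HS for IP over input with Mettl3 RNAi. With only the groups compared, SYS gave 1 after HS and 1 for control HS against basal.

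Leaving out 1 library gave 1 to 2 members for control and 2 to 5 for Mettl3 RNAi brains HS against basal, and 0 to 1 for Mettl3 RNAi against control after HS and at 24 h, for Mettl3 RNAi at 6 h, and for Ythdc RNAi against control basal and after HS. It gave 0 to 2 for HS in the controls of the Ythdc experiment, 0 to 1 for control and 0 to 2 for Mettl3 RNAi head inputs HS against basal, and 4 to 5 for the m6A-IP of control HS heads with either antibody. IP over input with Mettl3 RNAi gave 0 to 1 basal and 0 to 2 after HS with SYS, and 0 to 1 in both with NEB. Heads minus brains with Mettl3 RNAi gave 1 to 2, and NEB minus SYS inputs 0 to 2 in control and 0 to 1 with Mettl3 RNAi.

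Counts of all genes called moved by over 1.5 times as follows. Mettl3 RNAi against control basal in brains gave 220, against 539 by DESeq2, 130 with the replicate block, 389 with a term for the set, and 47 and 128 in replicates 1 to 3 and 4 to 6 alone. After HS it gave 635, against 1000, 1171 and 1172 in the same first fits and 298 in replicates 4 to 6. Control brains at 6 h gave 692, against 1119 by DESeq2, 1235 with no filter, 1735 with the block and 449 against all 6 basal libraries. At 24 h they gave 23, against 242, 125, 5 and 2. Mettl3 RNAi at 6 h gave 206, against 1219 by DESeq2, 726 with library size alone, 49 with no filter and 0 with the block, and at 24 h 0 against 654 by DESeq2. Mettl3 RNAi against control at 6 h gave 308, against 723 by DESeq2, 519 with no filter and 121 with the block. By DESeq2, Ythdc RNAi against control rose from 402 to 1289 basal and from 543 to 1012 after HS, and the interaction from 0 to 10. HS in the controls of the Ythdc experiment gave 1936, against 4289 with library size alone and 999 with the block. Head inputs with Mettl3 RNAi against control gave 414 basal and 283 after HS, against 646 and 444 by DESeq2, 1421 and 842 with the block, 0 and 0 with SYS alone, and 273 and 692 with NEB alone. With SYS alone, HS against basal in head inputs went from 3582 to 30 in control and from 4063 to 497 with Mettl3 RNAi. Without the pool block, the SYS m6A-IP went from 7874 to 5205 in control basal, 7304 to 4243 in Mettl3 RNAi basal and 6950 to 4340 in Mettl3 RNAi HS heads. SYS IP over input with Mettl3 RNAi gave 1102 basal and 1550 after HS, against 689 and 1008 by DESeq2 and 0 without the block. For control HS against basal it gave 18, against 11 by DESeq2, 106 with no filter, 0 without the block and 174 with only the groups compared, and with NEB 26, against 17 with library size alone and 58 with no filter. For Mettl3 RNAi HS against basal it gave 1, against 14 with no filter, 0 without the block and 3 with NEB, and the NEB count of 3 went to 18 by DESeq2, 5 with library size alone and 81 with no filter. Heads minus brains gave 497 in control and 626 with Mettl3 RNAi, against 1974 and 1956 with library size alone, 277 and 344 with no filter, and 1077 by DESeq2 with Mettl3 RNAi. By DESeq2, the Ythdc minus Mettl3 experiment went from 43 to 155, the effect of Ythdc RNAi on HS from 32 to 311, and NEB minus SYS inputs from 0 to 37 in control and 19 to 75 with Mettl3 RNAi, where no filter gave 30.

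Depth limits tra2 in the NEB m6A-IP, where libraries held 1 to 43 of its reads. The same libraries held 36 to 1199 reads of Sxl.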
